A study of Mus musculus with 6 samples.

Results

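The enzymes that attach palmitate to proteins and remove it again were read on 6 Affymetrix expression arrays of mouse heart. The set held every gene of the array annotation whose symbol starts with Zdhhc, together with the thioesterase genes Ppt1, Ppt2, Lypla1, Lypla2, Abhd17a, Abhd17b and Abhd17c and the cofactor gene Golga7. This gave 32 genes, 24 of them Zdhhc genes, of 18193 genes with a probe set that carries a single symbol. Each gene was read from the brightest of its single-symbol probe sets, by its mean log2(signal + 16) over the 6 arrays.

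The hearts came from male mice of 3 groups with 2 arrays each. Mice of the high FASN group belonged to a transgenic line with a high cardiac level of fatty acid synthase (FASN) and with the transgene under the heart muscle promoter alpha-MHC. Mice of the low FASN group belonged to another line with the same promoter and a low cardiac level, and the B6 control mice were age-matched. All 6 samples carry the strain label C57BL/6J, and even the controls are labelled as transgenic tissue, so groups were taken from the titles. The age of the mice and the species of the transgene are unknown here. With 1 line per level, the FASN level and other properties of a line cannot be told apart. Whether both arrays of a group stem from different animals is not stated, and the p-values therefore cover only array-to-array spread, which may be technical.

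Palmitate, the main product of fatty acid synthase, is joined as palmitoyl-CoA to cysteines of many membrane proteins in a reversible reaction called S-palmitoylation. The transferases are named for a conserved Asp-His-His-Cys (DHHC) motif whose cysteine takes up the acyl group before handing it on. Most sit in the endoplasmic reticulum, the Golgi or the plasma membrane. Thioesterases of the cytosol and plasma membrane (the LYPLA and ABHD17 proteins) and of the lysosome (PPT1) take the palmitate off. PPT2 is another lysosomal thioesterase, and no such action on proteins is claimed for it here. In heart muscle, palmitoylated proteins include the sodium pump regulator phospholemman, the sodium-calcium exchanger, caveolins, junctophilin and several G protein subunits.

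As a check of the labels, the Fasn probe set read 2268 and 2104 in high FASN hearts, 462 and 481 in low FASN hearts, and 213 and 187 in B6 control hearts. Array signals are in arbitrary units, and a level of 1 probe set cannot be compared with that of another. Heart muscle markers were bright on every array, with Myh6, the main adult myosin heavy chain, between 27487 and 38169. The 6 cardiomyocyte markers summed to 156364 to 175148 in high FASN hearts, 127806 to 129744 in low FASN hearts and 138646 to 144585 in B6 control hearts; 4 of 6 were called higher in high FASN than in B6 control hearts, and 1 lower in low FASN than in B6 control hearts. Markers of other cells moved too. The 5 adipocyte markers with a probe set (of 7 listed) summed to 40245 to 43848 in high FASN, 32113 to 32826 in low FASN and 21041 to 21479 in B6 control hearts, with 4 of 5 called higher in each line than in controls. The 3 markers of B and plasma cells summed to 453 to 455 in high FASN, 2143 to 2172 in low FASN and 60.5 to 142 in B6 control hearts, with 2 of the 2 tested called higher in each line. Smooth muscle markers summed to 10880.1 to 11185 in high FASN, 10821 to 11162 in low FASN and 4892 to 5053 in B6 control hearts, and 3 of 3 were called higher in each line. The 4 airway and lung markers summed to 2766 to 3038 in high FASN, 209 to 210.3 in low FASN and 75.8 to 114 in B6 control hearts, with 3 of 4 called higher in the high line and 1 of 4 in the low line. Of 4 fibroblast markers, 3 were called higher in each line, and of 3 mesothelium markers 2 were in high FASN and 3 in low FASN hearts. Both neutrophil markers were called lower in each line, with sums of 89.0 to 114 in high FASN, 113 to 124 in low FASN and 287 to 289 in B6 control hearts. Of 4 macrophage markers, 1 was called higher in the low line. No marker was listed at 0. In whole hearts, fewer cells of a type and less RNA per cell cannot be told apart, and the part of these shifts in the results on the palmitoylation enzymes was not tested.

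Of the 32 genes, 26 were bright enough to be tested, which required a mean log2(signal + 16) at or above the median of all probe sets. They comprised 18 of 24 Zdhhc genes and all 8 of the others. The 6 Zdhhc genes below that level were Zdhhc11, Zdhhc15, Zdhhc19, Zdhhc22, Zdhhc23 and Zdhhc25. The brightest of these was Zdhhc15, at 45.9 and 22.2 in high FASN, 56.9 and 62.9 in low FASN, and 48.8 and 51.1 in B6 control hearts. Values of Zdhhc19 stayed between 1.12 and 13.5 on the 6 arrays.

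Differences were tested with limma on all 22519 tested probe sets at once, and a call means a Benjamini-Hochberg adjusted p below 0.05. Differences and folds are on the log2(signal + 16) scale. In high FASN against B6 control hearts, 1 of the 26 enzymes was called higher and 2 lower, where 8.18% of all tested probe sets were called higher and 6.18% lower. In low FASN against B6 control hearts, 3 were called higher and 3 lower, against 13.5% and 10.8% of all tested probe sets. Between the lines, 3 were called higher and 4 lower in high FASN than in low FASN hearts, against 9.69% and 8.87%. Taken in both directions, the enzymes were called in 11.5%, 23.1% and 26.9% of cases in these comparisons, and all tested probe sets in 14.4%, 24.3% and 18.6%. Read from the brightest probe set per gene, as the enzymes were, 11498 genes were called in 16.9%, 27.6% and 20.6%. With 26 genes, each share of the enzymes rests on 3 to 7 calls and lies near that of the array as a whole. Their median difference was 0.05 on the log2 scale in high FASN against B6 control hearts, where that of all tested probe sets was 0.04. It was 0.05 against 0.02 in the low line and -0.08 against 0.01 between the lines. None of the 26 differed by 1 or more on the log2 scale in any comparison, and of all tested probe sets only 1.75%, 2.78% and 1.54% did. Both lines were set against the same 2 control arrays. In all, 9 of the 26 (34.6%) were called in at least 1 comparison, as were 34.6% of all tested probe sets.

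**Figure D1:**
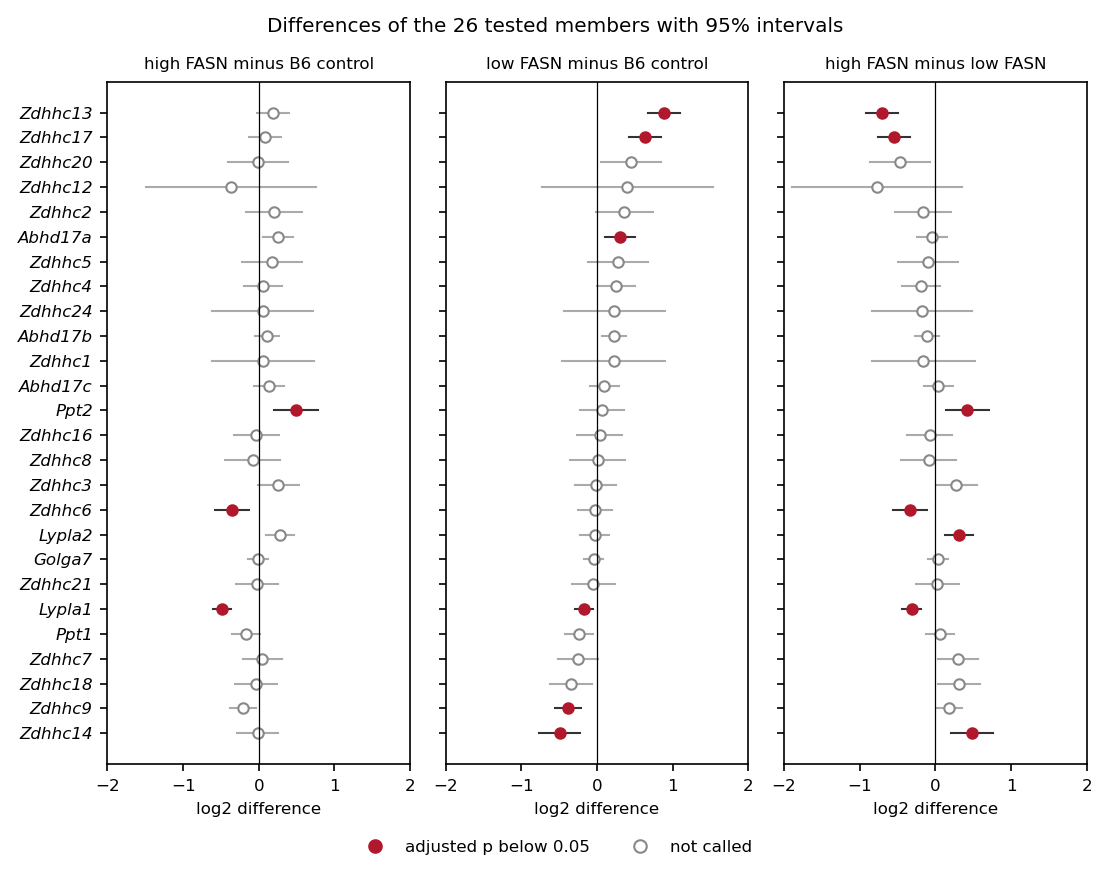
Log2 differences (x axis, points) with 95% intervals from the limma fit (lines) of the 26 tested enzymes (y axis), for high FASN minus B6 control, low FASN minus B6 control and high FASN minus low FASN. Filled points have an adjusted p below 0.05; Zdhhc13 and Zdhhc17 stand highest in low FASN minus B6 control, at 0.89 and 0.64, and all points lie between -1 and 1.

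Among the transferases, Zdhhc13 and Zdhhc17 were higher in low FASN hearts than in either other group. They encode the 2 DHHC enzymes with ankyrin repeats, both known as binding partners of huntingtin. Zdhhc13 read 388 and 380.4 in high FASN hearts, 613 and 658 in low FASN hearts, and 338 and 333 in B6 control hearts. The low FASN arrays stood apart from all others, and the high FASN arrays lay somewhat above the controls without overlap. Zdhhc13 was 1.85-fold higher in low FASN than in B6 control hearts (log2 difference 0.89 ± 0.09 SE, limma adjusted p = 0.000187). It was lower in high FASN than in low FASN hearts (-0.70 ± 0.09, limma adjusted p = 0.00126). The difference of high FASN from B6 control hearts was 0.19 with a 95% interval of -0.02 to 0.40 and was not called (limma adjusted p = 0.224). Zdhhc13 had no other probe set.

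Zdhhc17 read 518 and 537 in high FASN hearts, 727 and 835 in low FASN hearts, and 486 and 506 in B6 control hearts. Here too the low FASN arrays were the highest, while high FASN and control arrays lay close together. The rise was 1.55-fold in low FASN over B6 control hearts (log2 difference 0.64 ± 0.09 SE, limma adjusted p = 0.00117), and the difference between high FASN and low FASN hearts was -0.55 ± 0.09 (adjusted p = 0.00395). The difference between the lines moved to -0.45 with adjusted p = 0.0508 when low FASN array 2 was left out. A dimmer probe set of Zdhhc17 read 77.4 and 86.8 in high FASN, 125 and 136 in low FASN, and 108 and 84.0 in B6 control hearts, with differences of 0.40 (low FASN minus B6 control, limma adjusted p = 0.178) and -0.58 (high FASN minus low FASN, adjusted p = 0.0677) that were not called. High FASN minus B6 control was 0.09 on the brighter probe set, with a 95% interval of -0.12 to 0.29.

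Zdhhc9, Zdhhc14 and Zdhhc18 form a subfamily of close relatives, and all 3 had their lowest arrays in the low FASN group. ZDHHC9 works with GOLGA7 to palmitoylate H-Ras and N-Ras. Its gene read 730.4 and 781 in high FASN hearts, 654 and 676 in low FASN hearts, and 876 and 873 in B6 control hearts, so that the 3 groups did not overlap. The fall in low FASN against B6 control hearts was called (log2 difference -0.39 ± 0.08 SE, limma adjusted p = 0.00553), although the adjusted p was 0.0507 without low FASN array 1. High FASN minus B6 control was -0.21 (95% interval -0.38 to -0.04, limma adjusted p = 0.106). A second, dim Zdhhc9 probe set was not tested, and a mean over both gave -0.15 for low FASN minus B6 control (adjusted p = 0.533).

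Zdhhc14 read 520.0 and 448 in high FASN hearts, 329 and 355 in low FASN hearts, and 538 and 442 in B6 control hearts. Both low FASN arrays lay below the other 4, and the arrays of the high FASN and control groups overlapped. It fell in low FASN against B6 control hearts (log2 difference -0.50 ± 0.12 SE, limma adjusted p = 0.0165) and was higher in high FASN than in low FASN hearts (0.48 ± 0.12, adjusted p = 0.0247). All 5 other tested Zdhhc14 probe sets had the same sign in both comparisons, and 2 of the 5 were called in each. Of the 6, 5 are of a type whose probes can also match other transcripts; the remaining one gave -0.27 (adjusted p = 0.394) and 0.29 (adjusted p = 0.372). Without low FASN array 1 the brightest probe set gave -0.44 (adjusted p = 0.107) and 0.43 (adjusted p = 0.144), without low FASN array 2 it gave -0.55 (adjusted p = 0.058) and 0.53 (adjusted p = 0.0848), and both calls were lost. Leaving out B6 control array 1 ended the first (-0.36, adjusted p = 0.129) and leaving out high FASN array 1 the second (0.38, adjusted p = 0.111). Zdhhc18 had the same order of groups, at 301 and 287 in high FASN, 219.9 and 249.6 in low FASN, and 318 and 287 in B6 control hearts, and was not called (low FASN minus B6 control -0.34, limma adjusted p = 0.072).

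Zdhhc6 encodes an enzyme of the endoplasmic reticulum that acts with selenoprotein K, and calnexin is among its substrates. Its brightest probe set read 506 and 605 in high FASN hearts, 670.3 and 729 in low FASN hearts, and 706 and 721 in B6 control hearts. The high FASN arrays were the 2 lowest. The falls against B6 control hearts (log2 difference -0.36 ± 0.10 SE, limma adjusted p = 0.0424) and against low FASN hearts (-0.33 ± 0.10, adjusted p = 0.0483) were called, but other probe sets of the gene did not share them. The next brightest read 312 and 356 in high FASN, 239.7 and 175 in low FASN, and 267 and 268 in B6 control hearts. It was higher in high FASN than in low FASN hearts by 0.66 (limma adjusted p = 0.0174), the opposite direction. Against B6 control hearts the 2 other tested probe sets gave 0.30 and 0.20, and neither was called. Both calls on the brightest probe set were also lost when any array other than high FASN array 2 was left out (adjusted p = 0.0698 to 0.253), with values of -0.23 and -0.20 without high FASN array 1. No direction is therefore given for the gene Zdhhc6.

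The promoters of 3 enzyme genes that were called in low FASN against B6 control hearts are shown, of which 2 rose and 1 fell. The other genes called there, Zdhhc13, Zdhhc14 and Lypla1, had no promoter sequence in the source used. Sequences are RefSeq's for GRCm38.p6, from 250 bases before to 50 after the annotated start, 5' to 3' on the gene's strand; Zdhhc17 has 2 annotated starts, of which the first listed is shown. Capitals mark matches on either strand to the GC box GGGCGG, the CCAAT box CCAAT, the E-box CACGTG, the NRF1 motif, the ETS motif CCGGAAG or the sterol response element consensus TCACNCCAC.
Zdhhc17, chr10:111010017-111010316, minus strand: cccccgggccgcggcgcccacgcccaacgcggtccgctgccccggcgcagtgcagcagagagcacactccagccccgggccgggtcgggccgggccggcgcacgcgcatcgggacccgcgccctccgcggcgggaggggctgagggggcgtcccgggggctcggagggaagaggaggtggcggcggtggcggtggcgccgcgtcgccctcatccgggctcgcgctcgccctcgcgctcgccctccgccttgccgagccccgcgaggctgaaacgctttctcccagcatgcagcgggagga
Abhd17a, chr10:80590292-80590591, minus strand: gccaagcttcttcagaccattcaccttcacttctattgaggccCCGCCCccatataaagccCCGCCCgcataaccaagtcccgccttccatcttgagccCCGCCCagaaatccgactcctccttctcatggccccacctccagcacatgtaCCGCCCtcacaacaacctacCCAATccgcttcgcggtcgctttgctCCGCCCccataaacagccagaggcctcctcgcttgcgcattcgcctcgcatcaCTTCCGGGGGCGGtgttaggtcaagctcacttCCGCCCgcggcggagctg
Zdhhc9, chrX:48208653-48208952, minus strand: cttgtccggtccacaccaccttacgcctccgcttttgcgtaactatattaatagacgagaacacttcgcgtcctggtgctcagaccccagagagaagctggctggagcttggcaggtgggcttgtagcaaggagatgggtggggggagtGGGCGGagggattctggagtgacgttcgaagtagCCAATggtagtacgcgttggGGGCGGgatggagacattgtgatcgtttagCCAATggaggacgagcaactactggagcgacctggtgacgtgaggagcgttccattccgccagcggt
Of these letters the Zdhhc17 window held no match. The Abhd17a window held 7 GC boxes, 1 CCAAT box and 1 ETS motif, the last of which lies directly beside a GC box, and the Zdhhc9 window 2 GC boxes and 2 CCAAT boxes. Promoter windows were found for 25 of the 32 enzyme genes, with the first listed start used for each. A GC box was present in 17 of 25 (68%) and in 35.7% of all 32851 windows, an ETS motif in 7 of 25 (28%) and in 8.86%, a CCAAT box in 8 of 25 (32%) and in 37.4%, and an E-box in 2 of 25 (8%) and in 7.15%. The NRF1 motif and the sterol response element were found in 0 of 25 windows and in 0.971% and 1.24% of all windows. The enzyme shares count 1 window per gene, while the other shares count all windows, which hold several for some genes. The shares are therefore not a like comparison. The windows of genes with called and uncalled differences were not compared.

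**Figure D2:**
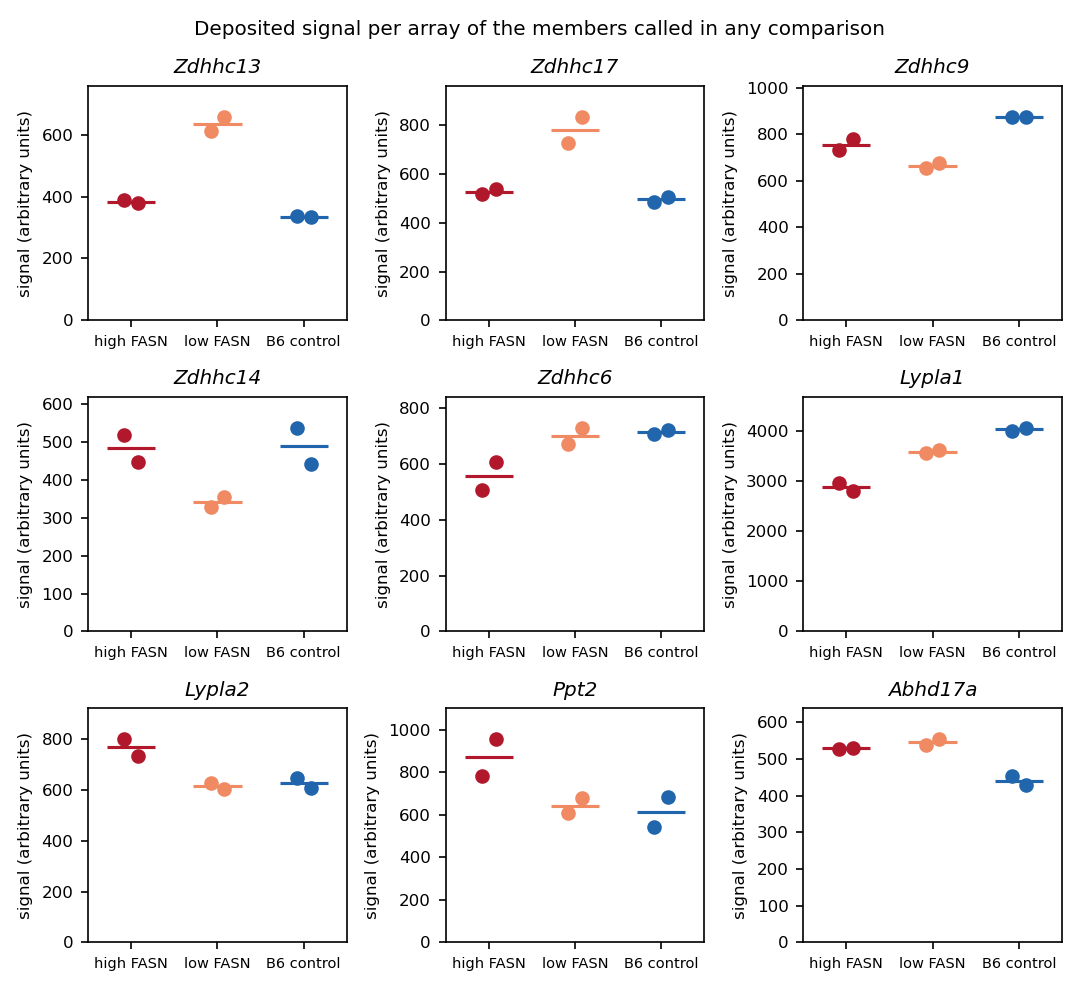
Deposited signal in arbitrary units (y axis, from 0) of the 9 enzymes called in at least 1 comparison, for high FASN, low FASN and B6 control hearts (x axis); points are arrays and horizontal lines group means (n = 2). In low FASN hearts Zdhhc13 reads 613 and 658 and Zdhhc17 727 and 835, above every other array, while Lypla1 is lowest in high FASN hearts, at 2965 and 2789.

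Of the 7 thioesterase genes, Lypla1, Lypla2, Ppt2 and Abhd17a were called in at least 1 comparison, a share (57.1%) that rests on 4 genes, where 34.6% of all tested probe sets were called. Lypla1 encodes acyl-protein thioesterase 1, a cytosolic enzyme that depalmitoylates Ras and G protein alpha subunits. It read 2965 and 2789 in high FASN hearts, 3548 and 3604 in low FASN hearts, and 3990.5 and 4060.1 in B6 control hearts, without overlap between any of the groups. Against B6 control hearts it fell by 0.48 in high FASN hearts (± 0.05 SE, log2 scale, limma adjusted p = 0.000499) and by 0.17 in low FASN hearts (± 0.05, adjusted p = 0.0474). It was also lower in high FASN than in low FASN hearts (-0.31 ± 0.05, adjusted p = 0.00441). This last call was lost without low FASN array 2, with untrended variance and with the mean over all Lypla1 probe sets, each time without a change of direction.

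The call of Lypla1 in low FASN against B6 control hearts was lost in 10 of 18 alternatives without a change of direction, among them quantile normalization (-0.13, adjusted p = 0.0952), median centring (-0.18, adjusted p = 0.0823), cyclic loess (-0.12, adjusted p = 0.102), the replicate number as a block (adjusted p = 0.0543) and leaving out either array of either group (adjusted p = 0.136 to 0.22). A dimmer probe set of Lypla1, of a type that can match several transcripts, did not show the fall. It read 516 and 432 in high FASN, 514 and 583 in low FASN, and 426 and 465 in B6 control hearts, with differences from B6 control of 0.08 (limma adjusted p = 0.687) and 0.29 (adjusted p = 0.099). A mean over all 3 Lypla1 probe sets gave -0.05 (adjusted p = 0.886) in the high line and 0.22 (adjusted p = 0.415) in the low line. That mean includes a probe set too dim to be tested, which read 3.42 and 56.7 on the B6 control arrays. The fall of Lypla1 is thus a result of its brightest probe set.

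Lypla2, the gene of acyl-protein thioesterase 2, read 803 and 735 in high FASN hearts, 628 and 603 in low FASN hearts, and 648 and 609.9 in B6 control hearts. Its high FASN arrays were the 2 highest, opposite to Lypla1. It was higher in high FASN than in low FASN hearts (log2 difference 0.31 ± 0.08 SE, limma adjusted p = 0.0299), while high FASN minus B6 control was 0.28 (95% interval 0.09 to 0.47) and missed the threshold (adjusted p = 0.0531). The call between the lines was lost with median centring (adjusted p = 0.0577) and without high FASN array 1 (0.25, adjusted p = 0.119), low FASN array 1 (0.34, adjusted p = 0.106) or low FASN array 2 (0.29, adjusted p = 0.165).

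Ppt1 and Ppt2 encode lysosomal thioesterases. Loss of PPT1 causes infantile neuronal ceroid lipofuscinosis, a storage disease. Ppt2 read 784 and 959 in high FASN hearts, 608 and 678 in low FASN hearts, and 545 and 686 in B6 control hearts, so that high FASN arrays lay above the other 4, which overlapped. It was higher in high FASN than in B6 control hearts (log2 difference 0.49 ± 0.13 SE, limma adjusted p = 0.033) and than in low FASN hearts (0.42 ± 0.13, adjusted p = 0.0485). Its spread within groups was wide, and leaving out high FASN array 2 brought the differences to 0.35 (adjusted p = 0.127) and 0.28 (adjusted p = 0.198). Without B6 control array 1 the first was 0.33 (adjusted p = 0.199), and it was 0.49 with adjusted p = 0.0553 and 0.0562 without low FASN array 1 or 2, since those arrays share in the estimate of the spread. The second was 0.35 (adjusted p = 0.243) and 0.50 (adjusted p = 0.111) without low FASN array 1 or 2. Ppt1 was not called in any comparison. It read 816 and 814 in high FASN, 812 and 745 in low FASN, and 872 and 969 in B6 control hearts, and low FASN minus B6 control was -0.24 (95% interval -0.42 to -0.05, limma adjusted p = 0.0657). The next brightest Ppt1 probe set had the opposite sign. It read 492 and 419.7 in high FASN, 295 and 469 in low FASN, and 358 and 319 in B6 control hearts. Its differences from B6 control of 0.41 (limma adjusted p = 0.183) and 0.13 (adjusted p = 0.653) were not called. The remaining, dimmer tested Ppt1 probe sets shared the sign of the brightest. They differed from B6 control by -0.20 and -0.14 in the high line and by -0.68 and -0.09 in the low line, and none was called.

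The ABHD17 proteins are plasma membrane hydrolases that depalmitoylate N-Ras and the synaptic scaffold PSD-95. Abhd17a read 527 and 530.1 in high FASN hearts, 538 and 556 in low FASN hearts, and 454 and 428 in B6 control hearts. Arrays of both lines lay above the controls. It rose in low FASN against B6 control hearts (log2 difference 0.30 ± 0.09 SE, limma adjusted p = 0.0333), and high FASN minus B6 control was 0.25 (95% interval 0.06 to 0.45, adjusted p = 0.088). The difference between high FASN and low FASN hearts was -0.05 with an interval of -0.24 to 0.15. The call was lost with quantile normalization (0.24, adjusted p = 0.083), median centring (0.29, adjusted p = 0.0543) and cyclic loess (0.26, adjusted p = 0.0657), and without either array of either group (adjusted p = 0.076 to 0.165). A mean over its 3 probe sets gave 0.66 (adjusted p = 0.0202). That mean includes a probe set too dim to be tested, at 32.8 and 44.1 in low FASN and 11.3 and 4.31 in B6 control hearts. The other tested Abhd17a probe set, dimmer than the brightest, was called in the same direction (low FASN minus B6 control 0.47, limma adjusted p = 0.0235). Abhd17b read 1126 and 1175 in high FASN, 1297 and 1198 in low FASN, and 1045 and 1092 in B6 control hearts, with both lines above the controls on this probe set. Its low FASN minus B6 control difference of 0.22 had an adjusted p of 0.05 and was not below the threshold. The next brightest Abhd17b probe set read 621 and 709 in high FASN, 855 and 827 in low FASN, and 750.3 and 698 in B6 control hearts, with differences from B6 control of -0.12 (limma adjusted p = 0.404) and 0.21 (adjusted p = 0.115). Abhd17c differed by 0.14 (high FASN minus B6 control), 0.10 (low FASN minus B6 control) and 0.04 (high FASN minus low FASN), with adjusted p between 0.34 and 0.792.

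The cofactor gene Golga7, whose product forms the ZDHHC9 complex, was not called in any comparison. It read 2691 and 2764 in high FASN hearts, 2648 and 2678 in low FASN hearts, and 2834 and 2657 in B6 control hearts. Its differences were -0.01 (high FASN minus B6 control, 95% interval -0.14 to 0.12), -0.04 (low FASN minus B6 control, -0.17 to 0.08) and 0.03 (high FASN minus low FASN, -0.09 to 0.16), so these arrays leave room for differences of up to about 0.17.

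The other 13 tested transferase genes were not called on their brightest probe sets in any comparison. They include enzymes with known heart substrates. Zdhhc5, whose product palmitoylates phospholemman at the cell surface, read 364 and 482 in high FASN, 529.6 and 382 in low FASN, and 338 and 404 in B6 control hearts, and the groups overlapped. Its difference from B6 control was 0.17 in the high line (95% interval -0.22 to 0.57) and 0.27 in the low line (-0.12 to 0.67), so in the low line a change of the size seen for Zdhhc17 (0.64) is inside the interval. On a dimmer Zdhhc5 probe set the low FASN arrays (168 and 184) lay above high FASN (132 and 129) and B6 control (148 and 127). Its low FASN minus B6 control (0.32, limma adjusted p = 0.179) and high FASN minus low FASN (-0.38, adjusted p = 0.132) were not called. Zdhhc16, whose product palmitoylates phospholamban, differed by -0.04 (-0.33 to 0.26) and 0.04 (-0.26 to 0.34) in the same comparisons. Zdhhc4, implicated with ZDHHC5 in the palmitoylation of the fatty acid transporter CD36, differed by 0.05 (-0.20 to 0.30) and 0.25 (-0.00446 to 0.50). Zdhhc21, whose product acts on endothelial nitric oxide synthase, differed by -0.02 (-0.30 to 0.26) and -0.05 (-0.33 to 0.24). A dimmer tested Zdhhc21 probe set had the opposite sign in both, at 0.29 (-0.03 to 0.61) and 0.33 (0.01 to 0.65). It was not called (limma adjusted p = 0.22 and 0.127). The Golgi enzyme genes Zdhhc3 and Zdhhc7 differed by 0.26 and 0.05 in high FASN, and by -0.02 and -0.25 in low FASN, against B6 control hearts. The remaining uncalled genes Zdhhc1, Zdhhc2, Zdhhc8, Zdhhc12, Zdhhc20 and Zdhhc24 differed by -0.37 to 0.20 in the high line and 0.01 to 0.45 in the low line. Zdhhc12 was the least precise, with a SE of 0.50, because low FASN arrays 1 and 2 read 32.2 and 144.

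Several enzymes had more than 1 tested probe set, and these did not always move together. The 24 tested probe sets that were not the brightest of their gene gave 1 call in high FASN against B6 control hearts, 4 in low FASN against B6 control hearts and 7 between the lines. These are 4.17%, 16.7% and 29.2%, beside 14.4%, 24.3% and 18.6% of all tested probe sets, and those named here were chosen after their values were seen. Zdhhc20, whose product palmitoylates the EGF receptor, read 190.3 and 192 in high FASN, 327 and 223 in low FASN, and 184 and 202 in B6 control hearts on its brightest probe set. That probe set was not called (high FASN minus low FASN -0.46, limma adjusted p = 0.0987). A dimmer one read 126 and 132 in high FASN, 221 and 232 in low FASN, and 156 and 170.4 in B6 control hearts, without overlap, and was lower in high FASN than in low FASN hearts by -0.74 (adjusted p = 0.00804). Both Zdhhc20 probe sets were highest in low FASN hearts.

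For Zdhhc3 the tested probe sets did not all move the same way. The brightest read 330.2 and 385 in high FASN, 303 and 279.9 in low FASN, and 282 and 309 in B6 control hearts and was not called. Its difference between high FASN and low FASN hearts was 0.28 (limma adjusted p = 0.148). The next read 141 and 142 in high FASN, 205 and 222 in low FASN, and 138 and 157 in B6 control hearts, so that low FASN arrays stood apart. It rose in low FASN against B6 control hearts (log2 difference 0.49 ± 0.15 SE, limma adjusted p = 0.0396) and was lower in high FASN than in low FASN hearts (-0.54, adjusted p = 0.0338). The dimmest tested one, at 99.1 and 138 in high FASN against 64.8 and 64.8 in low FASN hearts, was higher in high FASN (0.72, adjusted p = 0.0462). The remaining tested one gave 0.31 between the lines (limma adjusted p = 0.33). Between the lines, only the second brightest thus opposed the others. Which transcripts of Zdhhc3 each probe set reads was not analysed here. A dimmer Zdhhc8 probe set was higher in high FASN than in B6 control hearts by 0.995 ± 0.27 (limma adjusted p = 0.0369), at 159.6 and 90.7 against 45.7 and 60.5, while the brightest gave -0.08. The next brightest Abhd17b probe set was lower in high FASN than in low FASN hearts by -0.33 (adjusted p = 0.0283), where the brightest gave -0.11.

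**Figure D3:**
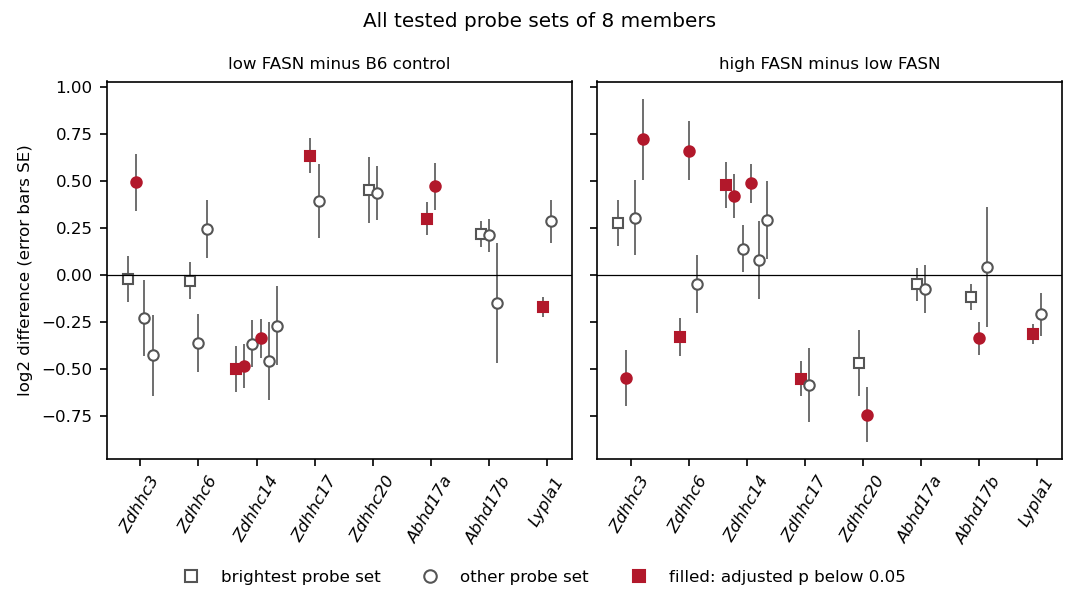
Log2 differences (y axis) of every tested probe set of 8 enzyme genes (x axis) in low FASN minus B6 control and high FASN minus low FASN; squares are the brightest probe set, circles the others, error bars SE, and filled symbols have an adjusted p below 0.05. Probe sets of Zdhhc14 all lie below 0 in low FASN minus B6 control and all above 0 in high FASN minus low FASN. Those of Zdhhc3, Zdhhc6 and Abhd17b lie on both sides of 0 in each comparison, and those of Lypla1 in low FASN minus B6 control.

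Other enzymes and cofactors of protein lipidation were read from lists that were chosen with earlier results of these data known. Of 12 tested genes for myristoylation, prenylation and related steps, 0 were called in high FASN against B6 control hearts by limma at the adjusted threshold and 4 at an unadjusted p below 0.05, which 28.8% of all tested probe sets reached. In low FASN against B6 control hearts 2 were called higher and 2 lower, and between the lines 2 higher and 1 lower in high FASN. The shares called (0%, 33.3% and 25%) stood beside 14.4%, 24.3% and 18.6% of all tested probe sets and rest on at most 4 genes. The N-myristoyltransferase gene Nmt2 read 229 and 247 in high FASN, 322 and 391 in low FASN, and 252 and 248 in B6 control hearts. It rose in low FASN against B6 control hearts (0.48, limma adjusted p = 0.0238) and was lower in high FASN than in low FASN hearts (-0.55, adjusted p = 0.0178), whereas Nmt1 fell in low FASN against B6 control hearts (-0.21, adjusted p = 0.0383). Rabggtb, a subunit gene of Rab geranylgeranyl transferase, rose there by 0.28 (adjusted p = 0.0148), and Zmpste24, the gene of a prenylprotein protease, fell by 0.42 (adjusted p = 0.00666). Hhatl, a relative of the hedgehog acyltransferase gene, and Pggt1b, a subunit gene of geranylgeranyl transferase I, were higher in high FASN than in low FASN hearts by 0.42 (adjusted p = 0.00342) and 0.39 (adjusted p = 0.0174).

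Of 4 further cofactor and thioesterase genes, 2 rose in low FASN against B6 control hearts and 1 was lower in high FASN than in low FASN hearts. In high FASN against B6 control hearts 0 were called by limma, and 2 had an unadjusted p below 0.05. These counts rest on 4 genes, and the array-wide shares called were 14.4%, 24.3% and 18.6%. Selenok, the gene of the ZDHHC6 partner selenoprotein K, read 2108 and 2999 in high FASN, 3888 and 3729.5 in low FASN, and 2602 and 2869.6 in B6 control hearts, with low FASN arrays the highest. Its differences were 0.48 in low FASN against B6 control hearts (limma adjusted p = 0.0269) and -0.60 between high FASN and low FASN hearts (adjusted p = 0.0134). Abhd10, the gene of a mitochondrial depalmitoylase, rose by 0.32 in low FASN against B6 control hearts (adjusted p = 0.0295).

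Of 19 tested genes for palmitoylated heart proteins, 2 were called higher and 1 lower in high FASN against B6 control hearts, 3 higher and 2 lower in low FASN against B6 control hearts, and 5 higher and 2 lower in high FASN than in low FASN hearts. These shares (15.8%, 26.3% and 36.8%) stood beside 14.4%, 24.3% and 18.6% of all tested probe sets. Jph2, the junctophilin gene that ties the sarcoplasmic reticulum to the T-tubule, read 2260.1 and 2151 in high FASN, 1373 and 1299.8 in low FASN, and 2022 and 2008 in B6 control hearts. It fell in low FASN against B6 control hearts (-0.59, limma adjusted p = 0.000178) and was higher in high FASN than in low FASN hearts (0.72, adjusted p = 0.000141). Cav1 is a caveolin gene of endothelial and other cells. It read 7989.9 and 7736 in high FASN, 10143 and 10257 in low FASN, and 7022 and 7466 in B6 control hearts. Cav1 rose in low FASN against B6 control hearts (0.49, limma adjusted p = 0.000164). Nos3, the endothelial nitric oxide synthase gene, rose there by 0.53 (limma adjusted p = 0.00524), and Ank3, the ankyrin-G gene, fell by 0.34 (adjusted p = 0.00436). Of the endothelial markers 1 of 3 was called higher in low FASN against B6 control hearts. Their sum was 3784 to 3997 in high FASN, 3578 to 3833 in low FASN and 3118 to 3198 in B6 control hearts. The markers did not move together. Cdh5 read 1669 and 1834 in low FASN and 1145 and 1068 in B6 control hearts. Kdr read lower in low FASN (1291 and 1302) than in B6 control hearts (1461 and 1417), and Pecam1 overlapped. The part of endothelial or smooth muscle cells in the rises of Cav1 and Nos3 was not tested. Flot2, a flotillin gene, rose by 0.35 in high FASN against B6 control hearts (adjusted p = 0.00678), Gnaq by 0.34 (adjusted p = 0.0185), and Gnai2 fell by 0.25 (adjusted p = 0.0391). Between the lines, Flot2 was higher in high FASN hearts by 0.50 (adjusted p = 0.0011) and Ank3 by 0.29 (adjusted p = 0.0128), while Cav1 was lower (-0.37, adjusted p = 0.00134).

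Among 9 tested lysosomal storage genes related to Ppt1, Ctsd, the cathepsin D gene, read 5401 and 5302 in high FASN, 4533 and 4542 in low FASN, and 6594 and 6438 in B6 control hearts. It fell by 0.28 in high FASN (limma adjusted p = 0.00446) and by 0.52 in low FASN (adjusted p = 9.09e-05) against B6 control hearts. Grn, the progranulin gene, rose by 0.27 in high FASN against B6 control hearts (adjusted p = 0.0103). In that comparison 1 of the 9 was called higher and 1 lower, and in low FASN against B6 control hearts Ctsd was the 1 gene called. Between the lines, Ctsd (0.24, adjusted p = 0.00901) and Grn (0.23, adjusted p = 0.0169) were higher in high FASN hearts and Cln8 was lower (-0.42, adjusted p = 0.039). The shares called were 22.2%, 11.1% and 33.3% of 9 genes, beside 14.4%, 24.3% and 18.6% of all tested probe sets.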

How the data were processed

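Signal intensities of 45101 probe sets on 6 arrays were taken from the table the authors deposited. Per the submitters' processing notes the intensities came from the GCOS software. Version, summary algorithm and scaling target: not given in the sources used here. Each deposited column had a mean of 300.002 after trimming 2% at each end, so no further scaling was applied. Total RNA was made into biotin-labelled cRNA, per the labels' protocols. Detection calls were not used here, so signal over background was judged from intensity, and precision is limited by the 6 arrays.

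Without the 64 control probe sets, 34945 of 45037 had 1 gene symbol in the platform annotation, 932 had several and 9160 none. All 32 enzyme genes matched RefSeq genes of GRCm38.p6 by Entrez identifier. The scale was log2(signal + 16), which understates changes of dim genes. The package limma 3.58.1 (R 4.3.3) fitted 3 group means with a trended eBayes prior; residual degrees of freedom were 3 and prior ones 6.43, and tests were two-sided. Probe sets at or above the median of the mean log2 values were tested (22519). Probe set names ending in _x_at or _s_at mark probes that can match several transcripts. The fit was tested on simulated data.

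The enzymes and the related lists were chosen with earlier results of these data known, as were tests and alternatives. Per-array values are given for every enzyme called in any comparison and for the 3 brightest uncalled ones, and up to 4 called genes per related list and comparison are named; other genes with values were chosen after their values were seen. The palmitoylated list had 4 further genes without a single-symbol probe set. Alternatives were other normalizations, pseudocounts (1 and 64), filters, variance models and probe set rules, the replicate number as a block, only the 4 arrays compared, and each array left out. Deviations of same-numbered arrays correlated at 0.000398 to 0.0396 between groups, so no shift common to them was seen over the tested probe sets. Whether same-numbered arrays shared a batch is not stated, and these correlations cannot settle it. Promoters were searched for exact letters. Plots used matplotlib 3.10.9 (Python 3.11.15).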

Additional observations from a re-analysis of the deposited data

Results flagged for a closer look

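The 7 enzyme genes whose values differed between the lines are listed here, by the limma test of high FASN minus low FASN, which is also the difference between the lines' distances from their shared controls. Zdhhc13 (log2 difference -0.70), Zdhhc17 (-0.55) and Lypla1 (-0.31) were lower in high FASN hearts. Zdhhc6 (-0.33) was lower on its brightest probe set and higher on another. Higher in high FASN than in low FASN hearts were Zdhhc14 (0.48), Ppt2 (0.42) and Lypla2 (0.31). No group had enough arrays to test for outlying arrays.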

How the results depend on the processing

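Of 286 recomputed values for the 16 called enzyme differences, 207 stayed called in the same direction, 76 kept the direction and lost the call, and 3 reversed. Zdhhc13 stayed called in 18 of 18 alternatives for each of its 2 differences (0.81 to 0.94 for low FASN minus B6 control, -0.75 to -0.64 for high FASN minus low FASN), and Zdhhc17 in 17 of 17 (0.54 to 0.73) and 16 of 17. Zdhhc17 had no value for the mean over probe sets, since that mean fell below the filter. Reversed values were Lypla1, low FASN minus B6 control, at 0.22 with the mean over probe sets, and Zdhhc6, high FASN minus B6 control, at 0.063 with that mean and 0.20 on its brightest probe set not ending in _x_at or _s_at. For both genes that mean took in probe sets too dim to be tested.

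For high FASN against B6 control hearts, enzymes called higher numbered 0 without a filter, with untrended variance and with only the 4 arrays compared, and 2 with the stricter filter, the replicate block and the mean over probe sets; those called lower numbered 1 without a filter, with untrended variance, with the 4 arrays and without _x_at and _s_at probe sets, and 0 with the mean over probe sets. For low FASN against B6 control hearts, those called lower numbered 1 with untrended variance and with the mean over probe sets. Between the lines, those called higher numbered 0 without a filter and with untrended variance, and those called lower 2 with untrended variance and 1 with the mean over probe sets. Leaving out 1 array gave 0 to 1 higher and 1 to 2 lower in the first comparison, 2 to 4 higher and 0 to 3 lower in the second, and 0 to 3 higher and 2 to 4 lower in the third. The replicate block ended 1 call (Lypla1, low FASN minus B6 control, adjusted p = 0.0543).

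Over all probe sets, untrended variance gave 1233, 3576 and 1449 calls in the 3 comparisons, and leaving out 1 array 1398 to 3493, 2897 to 6476 and 1553 to 4158, beside 3234, 5475 and 4179. The cause of these shifts was not tested. With 2 arrays per group, differences of dim enzymes such as Zdhhc12 (SE 0.50) could not be resolved.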
